A study of Mus musculus with 9 samples.

Results

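The 34 genes described here encode the constitutive subunits and regulatory assembly factors of the proteasome, the barrel-shaped protease that degrades proteins tagged with ubiquitin. They are the genes among 12849 tested whose name is Psma, Psmb, Psmc or Psmd followed by a number, leaving out the immunoproteasome genes Psmb8, Psmb9 and Psmb10. Of these, 14 encode the core particle (Psma and Psmb) and 20 carry the Psmc and Psmd names of the regulatory particle. Another 2 genes match the name but were too low to test. Psma8, a testis form, had 9 counts in WT replicate 2, 6 in p52Ki replicate 4 and 0 in the other libraries. Psmb11, a form of thymic epithelium, had 0 counts in all 9 libraries, and a count of 0 allows up to 0.0982 CPM (counts scaled to library size) in the summed WT libraries and 0.103 CPM in the summed p52Ki libraries.

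RNA was sequenced from spleen B cells labelled pre-GC, meaning before the germinal centre, the structure in which B cells multiply and change their antibody genes. There were 4 libraries of genotype WT and 5 of genotype p52Ki, titled p52ki/ki, which is how a homozygous knock-in is written. The p52 protein is an NF-kB transcription factor subunit, and the series title pairs it with the transcription factor ETS1. The sources used here do not give the construction of the knock-in, the age of the animals, any immunisation or the sort. Nor do they state whether each library is a different animal. The p-values therefore speak only to the spread among these libraries, which may be technical in part.

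The core particle is a stack of rings. Outer rings of alpha subunits gate the entrance, and inner rings of beta subunits hold the active sites. The regulatory particle caps this stack: its base contains a ring of ATPases that unfold substrates and push them into the core, and its lid removes the ubiquitin chains. In B cells the proteasome also trims p100, the product of Nfkb2, to p52, the protein that the p52Ki genotype is named after.

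Of the 34 genes, 4 fell and 0 rose in edgeR's quasi-likelihood test at a Benjamini-Hochberg adjusted p under 0.05. The 4 were Psmc1, Psmc3, Psmd4 and Psmd14, all of the regulatory particle, with levels 30.5% to 38.8% lower in p52Ki. Over all tested genes 4.04% fell and 4.49% rose by the same rule. Abundant genes were called more often in both directions. The 34 genes spanned a mean log2 CPM of 5.83 to 8.67. Among the 3621 genes in that range, 347 (9.58%) fell and 235 rose. The median log2 fold change of p52Ki over WT was -0.30 over the 34 genes, -0.11 over the genes in that range of level and 0.03 over all genes. The median standard error was 0.17 for the 34 genes, 0.22 over the genes in that range of level and 0.40 over all genes.

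**Figure D1:**
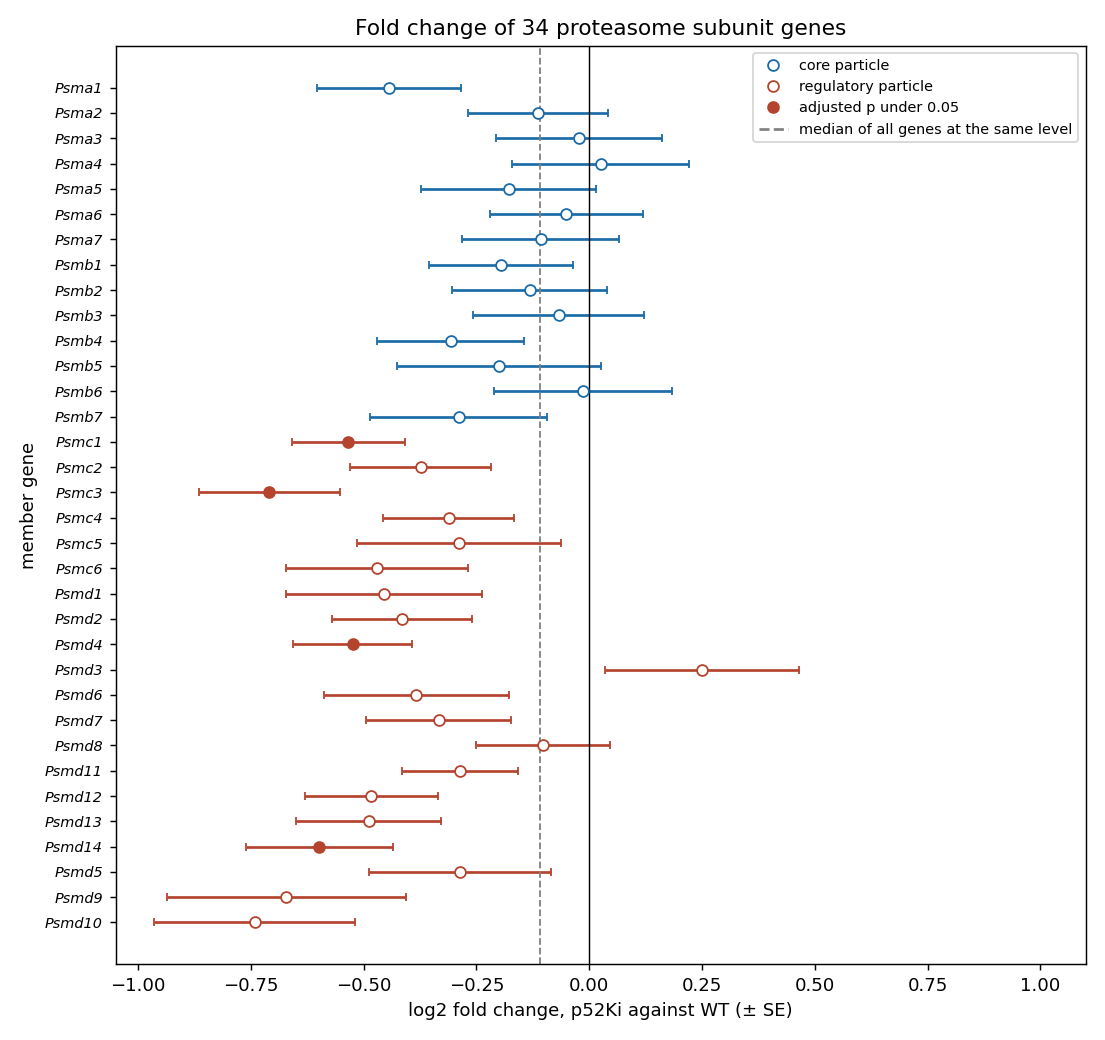
The log2 fold change of p52Ki over WT for each of the 34 genes is plotted with its standard error, core particle in blue and regulatory particle in red. Filled points are the 4 genes with an adjusted p under 0.05, all regulatory, and the dashed line marks the median of -0.11 for genes of similar level.

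WT libraries held 7368604 to 7937579 counts and p52Ki libraries 4492160 to 6647650. The number of genes with a count was 14033 to 14793 and 15504 to 16634. Depth and detected genes therefore separated the genotypes completely. With every library thinned to 4492160 counts, Psmc1, Psmc3 and Psmd4 were still called, and Psmd14 had an adjusted p of 0.051. The labels give no batch. Counts with no molecular identifiers include PCR copies. The B cell markers Cd79a, Cd79b, Ms4a1, Pax5 and Cd22 summed to between 7100 and 8280 CPM in WT and between 8320 and 11100 CPM in p52Ki. Germinal centre markers (S1pr2, Gcsam, Fas, Mybl1, Rgs13) were present in the cells labelled pre-GC, at summed levels of 1270 to 1730 CPM in WT and 332 to 816 CPM in p52Ki, and 4 of the 5 fell. In bulk RNA, fewer cells of a type and less RNA per cell cannot be told apart.

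Promoters of some genes from each particle are printed as examples of the sequence upstream of their starts. They are RefSeq sequences of build GRCm38.p6 covering up to 250 bases before the RefSeq start, without bases that GENCODE M21 places inside the gene. The 3 called genes with an entry are shown beside Psmd12, the lone gene here with an NF-kB motif, and the catalytic core genes Psmb5 and Psmb6. Capitals mark matches, on either strand, to an ETS motif (CCGGAAG), an NF-Y box (CCAAT), an antioxidant response element (TGACNNNGC), a GC box (GGGCGG) or the NF-kB motif.
Psmc1, chr12:100109952-100110153, plus strand: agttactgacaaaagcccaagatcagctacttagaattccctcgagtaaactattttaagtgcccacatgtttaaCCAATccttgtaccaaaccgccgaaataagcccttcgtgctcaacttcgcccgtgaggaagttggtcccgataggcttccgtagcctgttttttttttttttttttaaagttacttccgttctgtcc
Psmd4, chr3:95042615-95042864, minus strand: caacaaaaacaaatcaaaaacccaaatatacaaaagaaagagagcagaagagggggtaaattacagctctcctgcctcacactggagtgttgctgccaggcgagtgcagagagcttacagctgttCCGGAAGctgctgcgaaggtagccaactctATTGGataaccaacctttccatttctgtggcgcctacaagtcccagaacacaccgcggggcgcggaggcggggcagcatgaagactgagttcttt
Psmd14, chr2:61711444-61711693, plus strand: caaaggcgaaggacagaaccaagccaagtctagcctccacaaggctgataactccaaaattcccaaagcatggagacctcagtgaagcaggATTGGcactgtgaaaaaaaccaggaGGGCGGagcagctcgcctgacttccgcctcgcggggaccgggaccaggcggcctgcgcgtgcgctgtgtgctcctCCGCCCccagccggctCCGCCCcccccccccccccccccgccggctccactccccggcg
Psmd12, chr11:107479278-107479483, plus strand: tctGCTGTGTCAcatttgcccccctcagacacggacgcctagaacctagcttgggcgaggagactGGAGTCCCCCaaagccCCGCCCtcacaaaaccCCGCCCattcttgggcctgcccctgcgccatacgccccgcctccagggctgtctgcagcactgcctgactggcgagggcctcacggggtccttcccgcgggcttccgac
Psmb5, chr14:54618023-54618245, minus strand: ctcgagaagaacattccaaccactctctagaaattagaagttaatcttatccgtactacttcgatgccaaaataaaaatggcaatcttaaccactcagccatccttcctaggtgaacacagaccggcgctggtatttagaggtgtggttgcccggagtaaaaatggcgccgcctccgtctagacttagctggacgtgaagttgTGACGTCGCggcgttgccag
Psmb6, chr11:70525107-70525356, plus strand: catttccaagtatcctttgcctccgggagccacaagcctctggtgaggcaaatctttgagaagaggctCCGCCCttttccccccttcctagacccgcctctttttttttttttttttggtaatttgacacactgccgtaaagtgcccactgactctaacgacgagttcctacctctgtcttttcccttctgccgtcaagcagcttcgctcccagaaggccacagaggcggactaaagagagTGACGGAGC
The Psmc1 promoter has an NF-Y box 175 bases before the start. A reverse ETS motif lies 28 bases before the RefSeq start, inside the GENCODE gene and so not printed. In Psmd4 an ETS motif 125 bases and a reverse NF-Y box 95 bases before the start are marked. Psmd12 has a reverse NF-kB motif 185 bases before the start. It also has a reverse antioxidant response element 247 bases and reverse GC boxes 169 and 153 bases before the start. Its reverse ETS motif, 17 bases before the RefSeq start, lies inside the GENCODE gene and is not printed. Psmd14 has an NF-Y box and 3 GC boxes, and Psmb5 and Psmb6 each have an antioxidant response element, 47 and 9 bases before the start. Psmb6 also has a reverse GC box 182 bases before the start.

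RefSeq entries matched 28 of the 34 genes, 11 of the core and 17 of the regulatory particle; Psmb1, Psmb2, Psmb7, Psmc3, Psmd3 and Psmd7 had none. The ETS motif occurred in 8 of the 17 regulatory promoters (Psmc1, Psmc2, Psmc6, Psmd2, Psmd4, Psmd6, Psmd11 and Psmd12) and in 1 of the 11 core promoters (Psma6). It was present in 7.83% of all promoters of that length and in 17.5% of those of the 8740 tested genes with an entry. Shares of tested genes in this paragraph refer to these 8740. Regulatory genes with the motif had a median log2 fold change of -0.44 (n = 8) and those without it -0.46 (n = 9), so these medians lay close together. Among these 8740 tested genes, 3.93% of those with the motif and 4.55% of those without it fell. NF-Y boxes were in 6 of 11 core and 5 of 17 regulatory promoters, beside 40.8% of tested genes, and in all 3 called genes with an entry. GC boxes were in 5 of 11 and 12 of 17, beside 62.7%. The antioxidant response element, the letters bound by the Nrf factors that raise proteasome transcription, was in Psmb5, Psmb6, Psmc6, Psmd9 and Psmd12, beside 13.8% of tested genes. That is 2 of 11 core and 3 of 17 regulatory promoters. The NF-kB motif was in Psmd12, beside 5.15%. A match is a description of the letters in these windows.

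Among the 14 core particle genes, 0 passed the adjusted threshold with edgeR, DESeq2 or limma-trend, and 1, Psma1, had an unadjusted p under 0.05 with edgeR. Their fold changes ran from -0.44 to 0.03 on the log2 scale with a median of -0.12, close to the -0.11 of genes of similar level. In 13 of 14 the fitted value was below 0, which became 11 with DESeq2 size factors and 7 when the scaling factors were taken from genes of similar level. As first fitted, 59.9% of genes of similar level and 48.2% of all tested genes were below 0. The alpha ring had a median of -0.11 and the beta ring -0.20, over 7 genes each.

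Psma1, an alpha ring subunit, was the core gene of smallest p. Its levels in WT replicates 1 to 4 were 321, 329.9, 439 and 423 CPM, and in p52Ki replicates 1 to 5 they were 239, 315, 296, 317 and 224 CPM. Every p52Ki library lay below every WT library, by a small margin between the closest. The log2 fold change was -0.44 ± 0.16 (SE) with an adjusted p of 0.116, which misses the threshold. Psma5, another alpha subunit, had 129, 155, 234 and 211 CPM in WT and 179, 125, 158, 173 and 169 CPM in p52Ki. The groups overlapped, and WT replicates 3 and 4 were the highest libraries (log2 fold change -0.18 ± 0.19, adjusted p = 0.677).

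The 3 catalytic subunits of the beta ring overlapped between genotypes. Psmb5, the chymotrypsin-like site and the target of bortezomib, had 79.1, 91.7, 154 and 113 CPM in WT and 70.0, 86.2, 93.3, 113 and 114 CPM in p52Ki. WT replicate 3 stood highest, and without it the log2 fold change of -0.20 ± 0.23 (adjusted p = 0.697) became 0.03. Psmb6, the caspase-like site, had 174, 192, 334 and 268 CPM in WT and 252, 287, 206, 221 and 232 CPM in p52Ki. Its means were 242 ± 73.6 (SD, n = 4) and 239.7 ± 31.3 (SD, n = 5), a log2 fold change of -0.01 ± 0.20 (adjusted p = 0.981) whose sign changed with the scaling. Psmb7, the trypsin-like site, had 106, 97.1, 131 and 119 CPM in WT and 64.2, 90.6, 109.7, 114 and 85.4 CPM in p52Ki. The lowest 3 p52Ki libraries were below all WT libraries and the other 2 were within their range (log2 fold change -0.29 ± 0.20, adjusted p = 0.448).

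The non-catalytic beta subunits Psmb1 and Psmb4 were similar. Psmb4 had 137, 195, 197 and 236 CPM in WT and 144, 151, 166, 158 and 154 CPM in p52Ki; WT replicate 1 lay below all p52Ki libraries and the other 3 above them (log2 fold change -0.31 ± 0.16, adjusted p = 0.314). Psmb1 had 237, 264, 363 and 353 CPM in WT and 268, 305, 237, 280.1 and 237 CPM in p52Ki, again with WT replicates 3 and 4 highest (log2 fold change -0.20 ± 0.16, adjusted p = 0.549). The other 7 core genes had log2 fold changes between -0.13 (Psmb2) and 0.03 (Psma4, the lone core gene fitted higher), with adjusted p from 0.742 to 0.969.

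**Figure D2:**
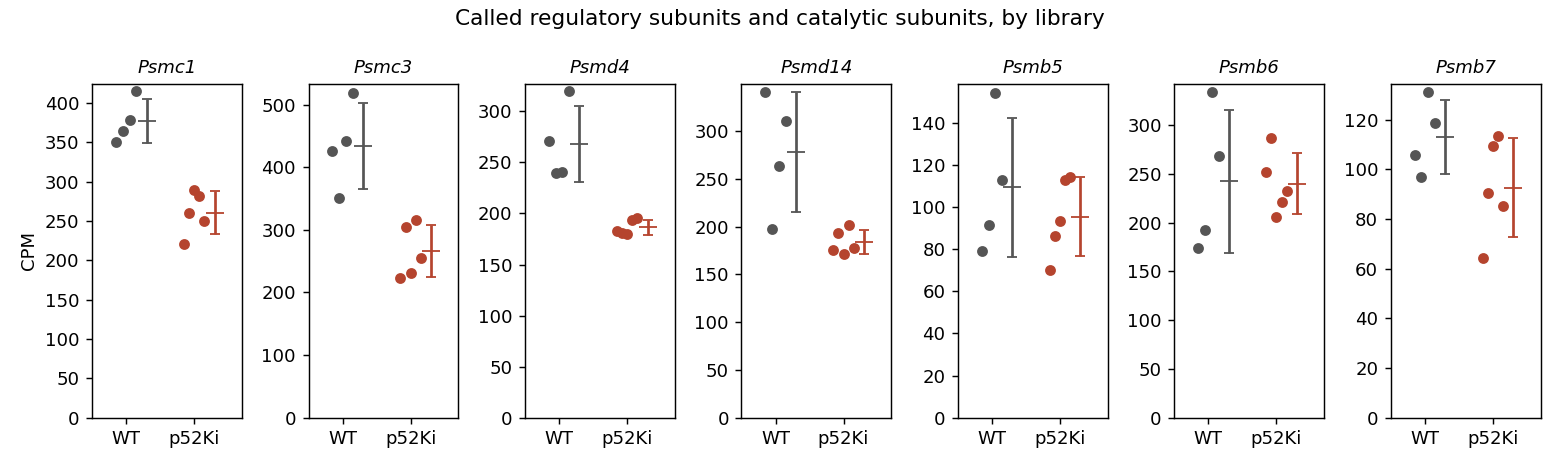
Levels in CPM are plotted for each library as points, with the mean and SD per genotype as bars, for 4 regulatory genes that fell and the 3 catalytic core genes. Psmc1, Psmc3 and Psmd4 have all p52Ki points below all WT points, while Psmb5, Psmb6 and Psmb7 overlap.

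Among the 20 regulatory particle genes, 4 fell and 0 rose, and 12 had an unadjusted p under 0.05, all lower in p52Ki. Of the 3621 genes of similar level, 815 were lower with an unadjusted p under 0.05, and 59.9% were fitted lower. Over all 12849 tested genes these values were 1363 and 48.2%. The median log2 fold change was -0.44 and 19 of 20 were fitted lower, or 18 with scaling factors from genes of similar level. It was -0.42 over the 17 genes left without the assembly factors Psmd5, Psmd9 and Psmd10, which are not part of the finished particle. The difference between the particles has no test of its own here.

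All 6 ATPases, which form the unfolding ring, were fitted lower, from -0.71 to -0.29, with 2 called. Psmc3 had 426, 352, 442 and 519 CPM in WT and 223, 305, 232, 315 and 255 CPM in p52Ki. Every p52Ki library was below every WT library, and the mean went from 434 ± 68.5 to 266 ± 42.0 CPM, 38.8% lower (log2 fold change -0.71 ± 0.16, adjusted p = 0.018). Psmc3 (chr2:91054009-91066369, plus strand) shares 8.25% of its exon bases with Slc39a13 on the other strand, and reads of such overlaps cannot be assigned to a gene without strand. Its call was lost without WT replicate 4 (adjusted p = 0.0608) or p52Ki replicate 3 (0.0534).

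Psmc1 (chr12:100110154-100123405, plus strand) had 350.1, 365, 378 and 415 CPM in WT and 220.2, 260.5, 289.5, 282 and 249 CPM in p52Ki. The lowest WT library was well above the highest p52Ki library, and the means were 377 ± 27.7 and 260.3 ± 27.6 CPM, 30.9% lower (log2 fold change -0.53 ± 0.13, adjusted p = 0.0232). The call was lost without WT replicate 3 (0.0651), WT replicate 4 (0.0829), p52Ki replicate 1 (0.0539) or p52Ki replicate 5 (0.0531), as adjusted p. With scaling factors from genes of similar level, it also missed the threshold (0.0587). The other 4 ATPases did not pass: log2 fold changes were -0.37 for Psmc2, -0.31 for Psmc4, -0.29 for Psmc5 and -0.47 for Psmc6, with adjusted p of 0.188, 0.239, 0.525 and 0.20.

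Of the base subunits that are not ATPases, Psmd4 was called and Psmd1 and Psmd2 were not. Psmd4, a receptor for ubiquitin chains (chr3:95032694-95042614, minus strand), had 271, 240.0, 241 and 320.1 CPM in WT. Its p52Ki libraries were tightly grouped at 183, 181, 179.7, 193 and 195 CPM, all below WT. The means were 268 ± 37.6 and 186 ± 7.29 CPM, 30.5% lower (log2 fold change -0.52 ± 0.13, adjusted p = 0.0298). The call was lost without WT replicate 1 (0.0693), WT replicate 4 (0.109) or p52Ki replicates 1 (0.0655), 2 (0.0646), 3 (0.0858) or 5 (0.0536), and with scaling factors from genes of similar level (0.0876). The scaffold subunits Psmd1 and Psmd2 had adjusted p of 0.257 and 0.134, and Psmd2 had means of 473 ± 36.3 CPM (WT) and 354 ± 69.4 CPM (p52Ki).

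Of the 8 lid genes, 7 were fitted lower and 1 was called. Psmd14, the metalloprotease that cuts ubiquitin chains off substrates (chr2:61711694-61800376, plus strand), had 341, 198, 264 and 311 CPM in WT and 176, 193, 171, 202 and 178 CPM in p52Ki. WT replicate 2 lay below p52Ki replicate 4, so the groups overlapped by this pair. The means were 278 ± 62.5 and 184 ± 13.0 CPM, 33.9% lower (log2 fold change -0.60 ± 0.16, adjusted p = 0.0429). The call was kept without WT replicate 2 and lost without each of the others. Without WT replicates 1, 3 or 4 the adjusted p was 0.123, 0.0824 and 0.124, and without p52Ki replicates 1 to 5 it was 0.0949, 0.0729, 0.115, 0.0574 and 0.0936.

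Psmd12, a lid scaffold subunit, had 231, 179, 261 and 194 CPM in WT and 157, 161, 142, 165 and 148 CPM in p52Ki. The groups did not overlap, but the adjusted p was 0.0676 (log2 fold change -0.48 ± 0.15), and DESeq2 gave 0.0322. Psmd3, also of the lid, was the lone regulatory gene fitted higher, with 107, 131, 86.5 and 64.1 CPM in WT and 134, 91.4, 111, 121 and 121 CPM in p52Ki (log2 fold change 0.25, adjusted p = 0.575). The other 5 lid genes lay between -0.49 (Psmd13) and -0.10 (Psmd8), with adjusted p from 0.0868 to 0.773.

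The assembly factors had a median of -0.67, with 0 of 3 called (DESeq2 called 1, Psmd10, and 2 of 3 had an unadjusted p under 0.05). Psmd10, the chaperone also known as gankyrin, had 86.8, 70.1, 137 and 97.2 CPM in WT and 59.8, 60.5, 52.6, 72.2 and 46.7 CPM in p52Ki. p52Ki replicate 4 was above WT replicate 2 and the other libraries were apart (log2 fold change -0.74 ± 0.22, adjusted p = 0.0634, or 0.0296 with DESeq2). Psmd9 had means of 71.2 ± 16.3 CPM (WT) and 44.6 ± 13.1 CPM (p52Ki), with no overlap and an adjusted p of 0.157. It shares 25.5% of its exon bases with Gm26745 on the other strand. Psmd5 had a log2 fold change of -0.29 and an adjusted p of 0.469.

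In 8 of the 34 genes every p52Ki library was below every WT library, and in 0 was every one above. Such a separation downward held for 6.53% of all tested genes and 12.8% of those of similar level. The 8 were Psma1, Psmc1, Psmc2, Psmc3, Psmd4, Psmd9, Psmd11 and Psmd12. The other-strand overlaps of exons with another gene touched 8 of the 34 genes, at most the 25.5% of Psmd9, and Psmb5 shares 12.1% with Mir686 on its own strand. The 34 genes lie on 15 chromosomes.

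**Figure D3:**
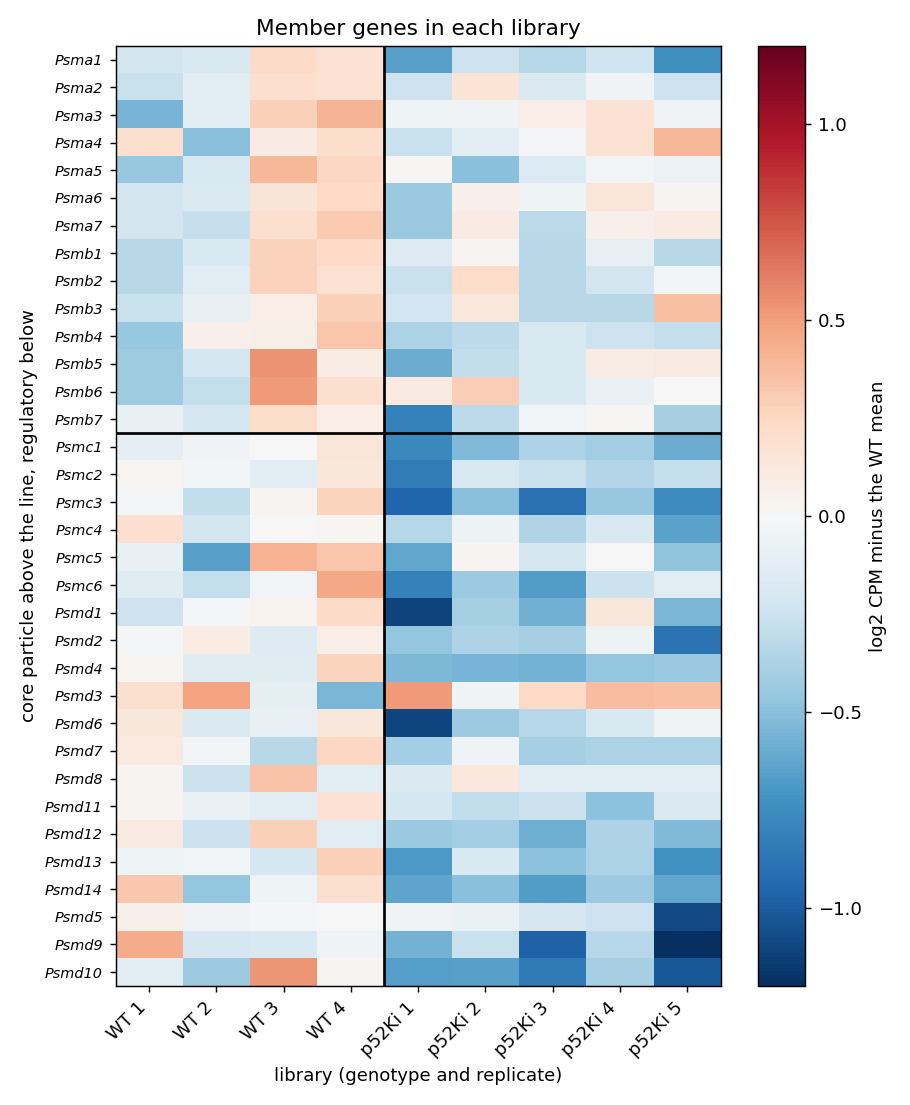
Each row is one of the 34 genes and each column one library; colour gives log2 CPM minus the WT mean of that gene. Regulatory rows are mostly below 0 across the p52Ki columns, while in most core rows WT replicates 1 and 2 are low and WT replicates 3 and 4 high.

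Summed over genes, the particles followed different patterns across the WT libraries. The 14 core genes summed to 2415, 2616, 3549 and 3507 CPM in WT and to 2434, 2925, 2576, 2863 and 2762 CPM in p52Ki. WT replicate 1 lay below and WT replicate 2 within the p52Ki range, and WT replicates 3 and 4 were above it. The means were 3022 ± 590.5 and 2712 ± 204 CPM, a ratio of 0.897 within the spread of WT.

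The 17 regulatory genes without assembly factors summed to 4495, 3973, 4387 and 4869 CPM in WT and to 2998, 3596, 3261, 3689 and 3147 CPM in p52Ki. All p52Ki libraries were below all WT libraries, and the ratio of the means was 0.753. Core over regulatory CPM was 0.537, 0.658, 0.809 and 0.72 in WT and 0.812, 0.813, 0.79, 0.776 and 0.878 in p52Ki. The ratio varied more among WT libraries than among p52Ki libraries and overlapped between genotypes at WT replicate 3. All 34 genes together took 0.672% to 0.835% of a WT library's counts and 0.588% to 0.689% of a p52Ki library's.

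**Figure D4:**
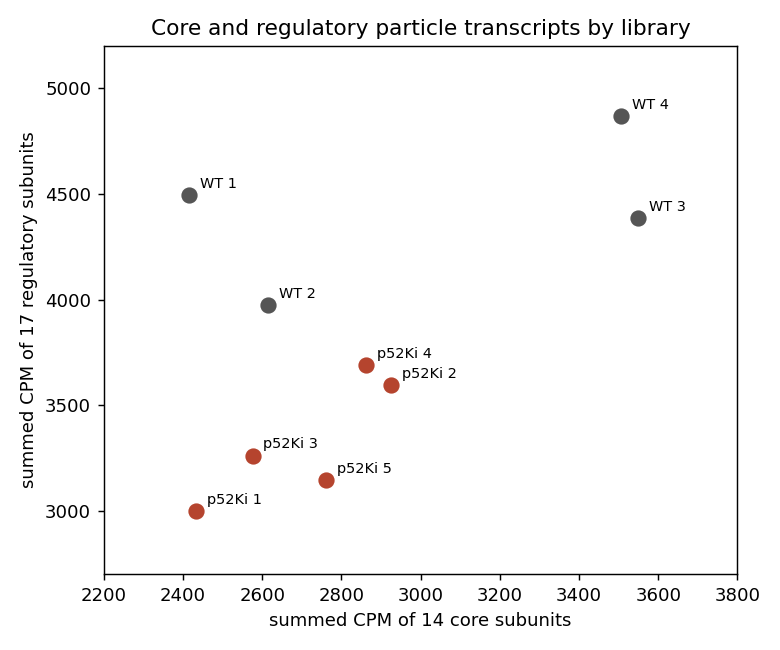
Summed CPM of the 14 core genes is set against that of the 17 regulatory genes, with 1 point per library and genotypes in different colours. Regulatory sums separate the genotypes, at 2998 to 3689 CPM in p52Ki and 3973 to 4869 CPM in WT, and core sums overlap.

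Levels can be compared between genes only per transcript length, as CPM per kilobase of the longest principal transcript. On that scale core genes in WT ran from 73.1 for Psma2 to 393 for Psma7, with the catalytic genes at 122 for Psmb5, 303 for Psmb6 and 97.6 for Psmb7. The order depends on the annotated length: Psma2 had 212.9 CPM in WT over 2911 bases, and Psmb5 had 109.5 CPM over 899 bases. Regulatory subunits ran from 45.3 for Psmd3 to 288 for Psmc4, and the assembly factors Psmd5 and Psmd9 were lower, at 31.6 and 27.4.

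Psmb8, Psmb9 and Psmb10 encode the immunoproteasome subunits, which replace Psmb5, Psmb6 and Psmb7 in lymphocytes and are induced by interferon. None of the 3 was called with edgeR: 0 had an adjusted p under 0.05. Psmb8 had 684, 713, 869.8 and 794 CPM in WT replicates and 550.4, 734, 606, 746 and 672 CPM in p52Ki. Psmb9 had 189, 181, 304 and 239 CPM in WT replicates and 195, 303, 211, 229 and 321 CPM in p52Ki, and Psmb10 had 116, 121, 189 and 159 CPM in WT replicates and 196, 178, 159.6, 149 and 197 CPM in p52Ki. The genotypes overlapped for all 3 genes. Mean levels in WT and p52Ki were 765 ± 83.8 and 662 ± 83.4 CPM for Psmb8 (log2 fold change -0.21, adjusted p = 0.397), 228 ± 56.6 and 252 ± 56.3 CPM for Psmb9 (0.14, 0.776), and 146 ± 34.6 and 176 ± 21.7 CPM for Psmb10 (0.27, 0.451). Per kilobase, Psmb8 was 3.11 to 4.77 times Psmb5 in WT and 3.25 to 4.70 times in p52Ki. Psmb10 over Psmb7 was 0.969 to 1.28 in WT and 2.71, 1.74, 1.29, 1.16 and 2.04 in p52Ki. So 4 of 5 p52Ki libraries exceeded every WT library, replicate 3 only just. Neither gene was called and the ratio was not tested. Psmb7 shares 11.8% of its exon bases with Nek6 on the other strand. Psmb9 over Psmb6 overlapped, at 0.526 to 0.641 and 0.457 to 0.814.

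Other genes of the pathway were mostly not called. Adrm1 and Sem1, regulatory subunits under other names, had log2 fold changes of -0.34 (adjusted p = 0.228) and -0.07 (0.958). Of 5 activators and inhibitors of the core, Psme3, a nuclear cap that works without ubiquitin, fell. It had 62.0, 66.5, 53.2 and 52.7 CPM in WT and 36.0, 33.7, 38.6, 35.7 and 36.1 CPM in p52Ki, with no overlap (log2 fold change -0.70 ± 0.20, adjusted p = 0.0467). That call was lost when any 1 library was left out, with adjusted p from 0.0792 to 0.112. It was also lost with DESeq2 size factors (0.0562), no filter (0.115), the 10 CPM filter (0.0672), limma-trend (0.0511), thinned counts (0.0526) and scaling from genes of similar level (0.104). Psme1 and Psme2, the caps induced by interferon, had values of 0.30 (0.499) and 0.42 (0.262). None of 5 core assembly factors, 12 proteasome-bound and ubiquitin shuttle genes, 6 ubiquitin and E1 genes or 4 genes of the p97 unfoldase passed with edgeR. Their median log2 fold changes were -0.18, -0.36, 0.06 and -0.18.

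Of 7 genes known to act on proteasome transcription, 1 fell and 1 rose. Nfya, the subunit of NF-Y that contacts the CCAAT box, had 33.2, 20.8, 17.8 and 8.76 CPM in WT and 3.34, 2.65, 4.85, 8.58 and 5.43 CPM in p52Ki. WT replicate 4 nearly met p52Ki replicate 4, and the other WT libraries were well above (log2 fold change -2.01 ± 0.52, adjusted p = 0.0326). The call was lost without WT replicates 1 (0.113), 2 (0.067) or 3 (0.0615), or p52Ki replicates 1 (0.0776), 2 (0.0701), 3 (0.078) or 5 (0.0643), and with no filter (0.0531). Ddi2, the protease that activates the factor Nfe2l1, had 42.0, 41.5, 22.5 and 45.7 CPM in WT and 78.0, 59.6, 92.1, 52.3 and 101.9 CPM in p52Ki, all above WT (log2 fold change 1.02 ± 0.28, adjusted p = 0.0444). Its call was lost when any 1 library other than p52Ki replicate 4 was left out, with adjusted p from 0.0547 to 0.106, and also with the GC and length correction (0.0762) and thinned counts (0.0592). Nfe2l1, which drives proteasome genes when proteasomes are inhibited, had a log2 fold change of 0.80 ± 0.33 and an adjusted p of 0.184.

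Nfkb2, the substrate gene of p100 processing, had 145, 175, 129 and 93.8 CPM in WT and 202, 150.4, 198, 228 and 261 CPM in p52Ki. p52Ki replicate 2 lay within the WT range and the other 4 above it (log2 fold change 0.61 ± 0.21, adjusted p = 0.0987). DESeq2 gave an adjusted p of 0.0293. The construction of the knock-in is not given, so it cannot be told whether p52Ki reads of Nfkb2 come from an altered copy of the gene. Of the 10 p100 processing genes, 0 passed with edgeR, and the median was -0.04.

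Most of the cell cycle and immediate early genes, and 3 of the heat shock genes, also differed between the genotypes, and their part in the regulatory particle result was not tested. The log2 fold change had a median of -0.98 over 12 S phase genes, of which 11 fell (Slbp -0.91, Mcm7 -1.004, Mcm2 -1.17, Mcm5 -1.23). Of 12 G2 and M phase genes 10 fell, with a median of -1.29 (Ccnb2 -1.28, Tpx2 -1.23, Aurka -1.27, Top2a -1.30). Of 10 heat shock genes 3 fell, with a median of -0.39: Hspa1a -4.27, Hspa1b -4.16 and Hsph1 -0.85. The first of these are nearly the same sequence, so their counts are uncertain. The Hsph1 call was lost when any 1 library other than p52Ki replicate 4 was left out, with adjusted p from 0.0604 to 0.0861, and with scaling from genes of similar level (0.0514). Of 8 immediate early genes, which respond to stimulation and handling, 6 rose, with a median of 1.05 (Ier2 1.36, Zfp36 0.94, Fosb 1.44, Jun 0.99).

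**Figure D5:**
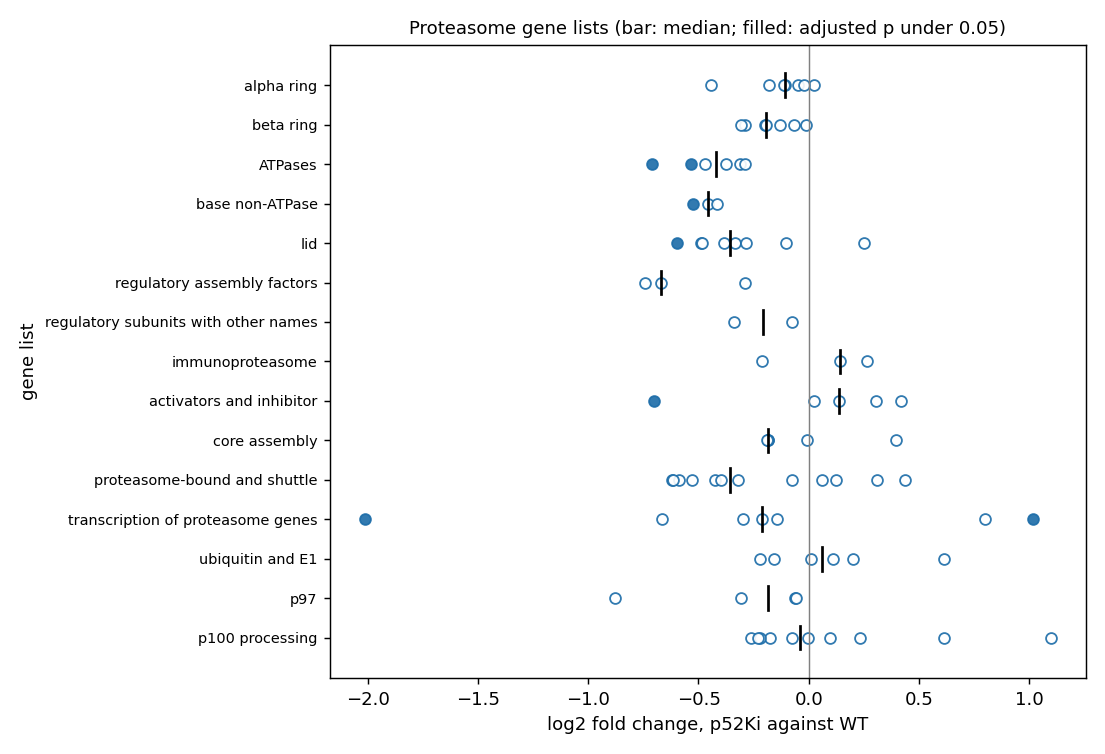
Each point is the log2 fold change of p52Ki over WT of 1 gene in each of 15 gene groups, the bar is the group's median and filled points have an adjusted p under 0.05. The medians are -0.11 and -0.20 for the core rings and -0.42 for the ATPases.

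Markers of other spleen cells were low beside the B cell markers. Summed CPM in WT and p52Ki was 188 to 256 and 76.9 to 201 for 7 T cell genes (Lck alone 187 to 248 and 76.9 to 184), 30.7 to 129 and 74.6 to 212 for 6 macrophage genes, and 45.2 to 67.7 and 10.5 to 40.1 for 5 dendritic cell genes (Flt3 alone 43.8 to 66.4 and 9.001 to 31.3). It was 39.2 to 105 and 112 to 265 for 4 stromal genes, all of it Pecam1, since Col1a1, Col3a1 and Pdgfra were at 0. For 5 neutrophil genes it was 0 to 3.32 and 0, with S100a8, S100a9, Camp and Elane at 0. For 4 NK cell genes it was 0 to 10.2 and 0 to 20.5, and for 5 erythroid genes 6.96 to 24.1 and 9.81 to 24.1. Plasma cell markers, 5 genes, summed to 1440 to 1890 and 674 to 1260 and did not move together: Jchain, most of the sum, fell from 1252 ± 194 to 562 ± 202 CPM, while Sdc1 was at 0 to 4.84 CPM in WT and 6.74 to 37.9 CPM in p52Ki (adjusted p = 0.0762). The plasma cell and dendritic sums and Pecam1, like the sums of the B cell and germinal centre markers, did not overlap between the genotypes. Their part in the result was not tested. Pecam1 rose with edgeR (log2 fold change 1.355, adjusted p = 0.0256), but alone it does not show a difference in stromal cells.

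Calls over all genes split differently under other scalings. Of 1096 genes called, 52.6% were higher in p52Ki, against 37.8% of 1294 after correction for GC content and length and 66.7% of 1087 with scaling factors from genes of similar level. The number of the 34 genes called moved with these, to 7 and 1 (20.6% and 2.94%, all lower). Of genes of similar level, 14.8% and 6.68% were called lower in the same fits. The GC and length correction put the median log2 fold change at -0.085 over all genes and -0.22 over genes of similar level. It was -0.21 over core genes, close to that of genes of similar level, and -0.50 over regulatory genes. With scaling factors from genes of similar level the same medians were 0.15, 0.008, -0.005 and -0.32. In each of these fits the regulatory median was the lowest of those given.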

How the data were processed

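The SMART-Seq v2 and Nextera XT kits, named in the labels' protocols, amplify full-length cDNA by PCR and do not mark strand. Build GRCm38, HISAT2 2.1.0, SAMtools 1.8, Subread 1.6.2 and featureCounts are named in the submitters' processing notes; annotation release and strand setting are not given in the sources used. Raw counts were deposited by the authors for 55536 genes and log2 CPM values for 12849 genes. The deposited log2 values equalled the TMM log CPM of edgeR with a prior count of 2 on those counts, to within 4.97e-14. All 9 libraries entered, and 0 columns belonged to other samples. No 2 libraries of a genotype agreed within sampling noise (smallest chi-square per degree of freedom 24).

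The deposited counts were tested in R 4.3.3 with edgeR 4.0.16 (filterByExpr, TMM, robust quasi-likelihood F test, no covariate), two-sided, with Benjamini-Hochberg adjustment over 12849 genes and a threshold of 0.05. The biological coefficient of variation was 0.567. Standard errors equal the size of the log2 fold change divided by the root of F. Levels are TMM-scaled CPM (mean ± SD, n = 4 and 5). The floor for a count of 0 is 3 counts over a genotype's summed libraries and covers counting error only. The test was also run on simulated counts whose changes were larger than those of the proteasome genes. That run does not show how well changes of their size are found. Positions, exon overlaps and transcript lengths came from GENCODE M21, and promoters from RefSeq.

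The members and lists were chosen with earlier results of these data known. Values in every library are given for the catalytic subunits, Psmd4, Psmd14, the 6 genes of smallest p in each particle, immunoproteasome genes and Nfkb2, and fold changes for up to 4 called genes of smallest p per related list. Psmd3, Psme1, Psme2, Nfe2l1 and other genes outside that rule were named after their values were seen. The alternatives were DESeq2 size factors, other filters, a replicate block, leaving out each library, DESeq2 1.42.0, limma-trend (limma 3.58.1) on the deposited log2 values, and a GC and length correction. Thinned counts (4492160 per library) and scaling factors from genes of similar level were added after seeing the data. A few genes of the marker lists are not reported here and were left out of their sums.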

Additional observations from a re-analysis of the deposited data

Results flagged for a closer look

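Of 68 groups (34 genes in each of 2 genotypes), 3 held a library far from the others of its genotype, where chance gives about 1 in 20. Psmd7, a lid subunit, stood at 164.9 CPM in p52Ki replicate 2, with the other p52Ki libraries between 128.2 and 130.9 CPM. Psmd8, also of the lid, stood at 285.9 CPM in the same library, with the others between 232.4 and 239.8 CPM. Psmd5, an assembly factor, stood at 65.4 CPM in p52Ki replicate 5, with the others between 117.2 and 134.7 CPM. None of these genes was called with edgeR.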

How the results depend on the processing

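Over the alternatives, 0 core genes were called in any, and the median log2 fold change ran from -0.215 to -0.005 for core genes and from -0.504 to -0.321 for regulatory genes. The count of regulatory genes called, and so of all 34 genes, was 4 as reported, 1 with no filter on low counts, 7 with the GC and length correction, 1 with scaling factors from genes of similar level, and 0 to 5 with 1 library left out (0 without WT replicate 4, 5 without WT replicate 2, 1 without p52Ki replicates 1, 3 or 5, 2 without WT replicates 1 or 3 or p52Ki replicate 2). DESeq2 called 6. Over all genes 1096 were called, 1766 with DESeq2 and 625 to 1108 with 1 library left out. With no filter, Psmc1 (0.0533), Psmd4 (0.0661) and Psmd14 (0.0725) lost their adjusted p under 0.05, as did Psmd14 with DESeq2 size factors (0.0536), thinned counts (0.051) and scaling from genes of similar level (0.096). The sign of Psmb6 changed, to 0.015 with DESeq2 size factors and with DESeq2, 0.004 with no filter, 0.022 with a filter of 10 CPM, 0.026 with limma-trend, 0.104 with scaling from genes of similar level, and -0.144 to 0.203 with 1 library left out; Psmb5 ran from -0.328 to 0.033 with 1 library left out. The cause was not tested.

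Replicate numbers did not pair the libraries: deviations of same-numbered libraries correlated at -0.042 to -0.009, those of other pairs at -0.047 to 0.073, and 0 of 8 libraries correlated best with their own number. With the replicate number as a block, 106 genes were called in all and 0 of the 34 (0 regulatory), and Psmb6 was at 0.056; p52Ki replicate 5 has no partner there. The calls of Psme3, Nfya, Ddi2, Hsph1, Jun and the named cell cycle genes were also lost. The filter on low counts left out Psma8 (9 counts in WT and 6 in p52Ki) and Psmb11 (0 counts). With thinned counts 3 of the 34 genes were called.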
